A study of Rattus norvegicus with 4 samples.

Results

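The genes described are the potassium channel genes whose symbols start with Kcn, apart from the Kcnk genes, which encode the background leak channels. They comprise voltage-gated (Kv) pore subunits, the auxiliary subunits of Kv channels, calcium- and sodium-activated channels, and inward rectifiers. Of the 32883 genes in the deposited table, 78 fit this description by symbol, and 49 of the 78 passed the filter on low values, which asked for 1 CPM (counts scaled by library size) or more in 2 libraries, and entered the test. RNA was taken from whole carotid bodies (CBs) of Sprague Dawley rats, 2 libraries being of neonates aged 5 days and 2 of rats aged 21 days. The latter are called adults here, the study's own word for them. According to the sample labels, each neonatal library held the CBs of 6 pups and each adult library those of 3 rats, and both sexes were included. The study's methods give other pool sizes and replicate numbers, and the labels were followed. The labels name no transgene or treatment, and the comparison asks which genes differ between an age of low and an age of higher CB sensitivity to hypoxia.

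Potassium channels let potassium leave the cell and so hold or restore a negative membrane potential. In the glomus cell, the oxygen-sensing cell of the CB, hypoxia closes potassium channels, the cell depolarises, calcium enters and transmitter is released onto the sensory nerve. Kv channels open on depolarisation, calcium-activated channels of large conductance (BK) open on depolarisation together with calcium, and inward rectifiers pass current best near the resting potential, some under the control of ATP or G proteins. The same gene family also sets the tone of vessels and the excitability of nerve and glia, which whole CBs contain as well.

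The 4 libraries held between 36286191 and 39476110 estimated counts, so that 3 counts, taken as the floor of detection, corresponded to between 0.0736 and 0.0845 CPM, for counting error only. CPM are given after trimmed mean of M-values (TMM) normalisation, and differences as log2 fold changes of neonate over adult, tested by quasi-likelihood in edgeR, with p adjusted after Benjamini and Hochberg for 13843 genes. With 2 libraries per age, the smallest two-sided p that exact permutation of the libraries allows for 1 gene is 0.333. Markers of glomus cells were abundant at both ages (summed levels of 10525 and 9096 CPM in neonates and 11624 and 9276 CPM in adults), and of the 11 tested, 3 were higher and 3 lower in neonates. Of 11 markers of sympathetic neurons and nerve tested, 10 were higher in neonates (3022 and 2607 CPM in neonates and 1940.4 and 1592 CPM in adults), as were 5 of 5 markers of dividing cells (516 and 434 CPM in neonates and 108 and 109.6 CPM in adults). Markers of smooth muscle (5 of 7, 627 and 659 CPM in neonates and 773 and 904 CPM in adults) and of pericytes (4 of 5, 697 and 703 CPM in neonates and 1395 and 1411 CPM in adults) were mostly lower in neonates. For glia, the sum of the markers was 1142 and 2244 CPM in neonates and 1926 and 2057 CPM in adults, and 2 of 8 were higher and 3 lower in neonates. Of the remaining marker lists, 3 of 6 endothelial, 3 of 5 fibroblast, 5 of 6 macrophage, 3 of 4 adipocyte and 1 of 2 thyroid genes tested were lower in neonates, 1 endothelial gene was higher, and none of the 3 skeletal muscle genes and the 1 lymphocyte gene tested was called. Parathyroid markers, led by Pth, summed to 1830.1 and 214 CPM in neonates and 0.147 and 0.151 CPM in adults. Parathyroid RNA was thus present in both neonatal libraries in unequal amounts, and calls are given below with and without neonate replicate 1 where that changed them. Neonate replicate 2 still held Pth at 208 CPM, so leaving out replicate 1 cannot separate parathyroid RNA from age. In whole tissue, fewer cells of a type and less RNA per cell cannot be told apart.

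Of the 49 channel genes tested, edgeR's test called 16 lower and 9 higher in the neonate (adjusted p under 0.05). Among all genes tested these shares were 31.1% lower and 31.2% higher, so that 51.0% of the channel genes against 62.3% of all genes passed. With a fold change of 2 required in addition, there were 13 lower and 5 higher channel genes, or 36.7% of those tested, against 20.8% of all genes. Lower past 2-fold were 26.5% of the channel genes and 13.2% of all genes, and higher past 2-fold 10.2% and 7.68%. The median log2 fold change was -0.15 for the channel genes and -0.0029 for all genes tested. Ages did not overlap for 35 of the 49 genes, or 71.4%, against 83.0% of all genes tested. Without adult replicate 2, 3 in place of 5 channel genes were higher past 2-fold. Scaled to library size alone, 3 channel genes were higher and 15 lower past 2-fold.

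The filter shaped this list. It was passed by 8 genes, Kcnmb1, Kcnj10, Kcnj13, Kcnj16, Kcna3, Kcna4, Kcnh3 and Kcnq3, through the adult libraries alone, and by none through the neonatal libraries alone. Of these 8, 6 are among the 13 genes called lower past 2-fold. The other 7 of the 13 are among the 41 channel genes that reached 1 CPM in at least 1 library of each age. How many of all genes passed through adult libraries alone was not counted, so the split is not read as particular to channels. Just inside the limit lay Kcna4, whose second highest library had 1.03 CPM before normalisation, and just outside lay Kcne4 with 0.926 CPM.

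**Figure D1:**
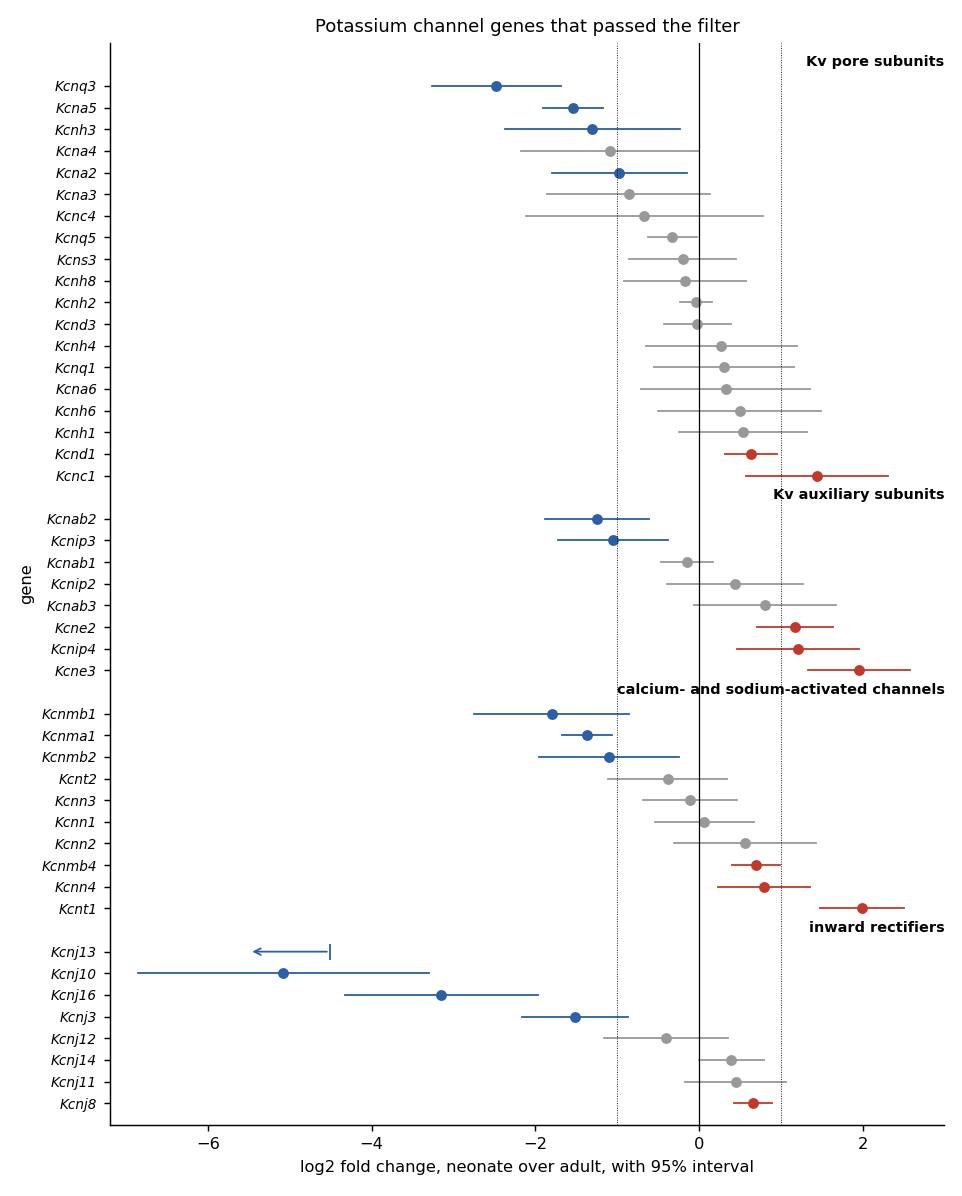
Log2 fold changes of neonate over adult (horizontal axis) for 45 of the channel genes tested, in the 4 classes, with 95% intervals that are not adjusted for multiple tests; red and blue mark genes called higher and lower in the neonate (adjusted p under 0.05), grey the others, and dotted lines a fold change of 2. Kcnj13, at 0 counts in neonates, is drawn as an arrow from its bound of -4.50, and the pair of genes farthest to the left, Kcnj10 and Kcnj13, are inward rectifiers.

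By class, the counts are read against the 31.1% lower and 31.2% higher of all genes, and differences between classes were not tested. Of 23 Kv pore subunits tested, 7 were lower and 2 higher in neonates, and the median log2 fold change was -0.20. Of 8 Kv auxiliary subunits, 2 were lower and 3 higher, with a median of 0.62, and all 5 of these differed by more than 2-fold. Of 10 calcium- and sodium-activated channel genes, 3 were lower and 3 higher, with a median of -0.023. Of 8 inward rectifiers, 4 were lower, each past 2-fold, and 1 was higher, with a median of -0.96 that was the same with Kcnj13 set at its bound. Less the median of all genes, this value was -1.44 without a filter and turned to 0.41 where a mean of 5 CPM was required. Of the inward rectifiers only Kcnj8, Kcnj11 and Kcnj14 met that mean, and of these only Kcnj8 was called. The class counts and medians are descriptions of the genes that passed the filter, 3 of the 8 inward rectifiers having passed through the adult libraries alone.

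The bases upstream of the annotated gene start are shown for the pair of genes with the largest difference in each direction among the 33 of 49 that have an entry in the RefSeq promoter table (build GRCr8). Kcnq3 has no entry. Each sequence is the 250 bases before the start, 5′ to 3′ on the strand of the gene. Capitals mark the GC box GGGCGG, the letters ACGTG that form the core of the hypoxia-inducible factor motif, the core TGACG of the cyclic AMP response element and the TATA box TATAAA, each searched on both strands.
Kcnt1, higher in neonates, chr3:29081089-29081338, plus strand: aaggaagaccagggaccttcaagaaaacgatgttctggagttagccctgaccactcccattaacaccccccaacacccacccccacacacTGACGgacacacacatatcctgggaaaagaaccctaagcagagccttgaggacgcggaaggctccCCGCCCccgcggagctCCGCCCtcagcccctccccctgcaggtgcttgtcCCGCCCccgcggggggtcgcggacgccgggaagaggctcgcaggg
Kcne3, higher in neonates, chr1:163935785-163936034, plus strand: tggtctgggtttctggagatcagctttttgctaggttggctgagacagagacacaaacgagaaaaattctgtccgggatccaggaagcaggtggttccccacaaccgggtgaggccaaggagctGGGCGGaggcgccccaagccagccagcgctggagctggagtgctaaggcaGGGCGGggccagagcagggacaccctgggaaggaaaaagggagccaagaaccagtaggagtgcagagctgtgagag
Kcnj13, lower in neonates, chr9:95518987-95519236, minus strand: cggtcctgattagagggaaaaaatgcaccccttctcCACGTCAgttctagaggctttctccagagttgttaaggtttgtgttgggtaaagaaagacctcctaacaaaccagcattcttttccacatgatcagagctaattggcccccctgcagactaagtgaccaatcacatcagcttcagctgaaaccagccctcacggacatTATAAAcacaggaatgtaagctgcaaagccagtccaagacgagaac
Kcnj10, lower in neonates, chr13:87334260-87334509, plus strand: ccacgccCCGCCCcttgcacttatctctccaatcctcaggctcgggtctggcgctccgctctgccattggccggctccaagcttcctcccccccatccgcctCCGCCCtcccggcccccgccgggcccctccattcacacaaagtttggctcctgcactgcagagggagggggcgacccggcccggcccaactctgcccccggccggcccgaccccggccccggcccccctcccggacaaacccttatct
The GC box occurred 3 times upstream of Kcnt1, 2 times upstream of Kcne3 and 2 times upstream of Kcnj10. Upstream of Kcnj13 there was none, but a TATA box started at position -46 and the letters ACGTG and TGACG overlapped in one stretch. Over the same 250 bases of 27456 genes, 32.4% held the GC box, 16.9% ACGTG, 19.0% TGACG and 13.1% the TATA box. A match of letters describes the sequence and shows no binding, and shares over the channel genes are not given because only 67.3% of them have an entry.

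Among Kv pore subunits, the products of several Kcnq genes form slowly opening channels that carry the M-current, a brake on repetitive firing. Kcnq3 (ENSRNOG00000005206), a subunit of the M-channel of neurons, had 0.929 and 0.779 CPM in neonates and 5.72 and 3.80 CPM in adults. It was 5.56-fold higher in adults (-2.47, SE 0.35, edgeR adjusted p = 0.00031), with no overlap between ages. Kcnq3 passed the filter through the adult libraries alone. Of the markers of sympathetic neurons and nerve, 10 of 11 were higher in neonates and none was lower, and their part was not tested. Kcnq5, another M-channel subunit, had 28.0 and 25.6 CPM in neonates and 37.9 and 29.1 CPM in adults, without overlap. Its log2 fold change of -0.32 (SE 0.13) missed the threshold (edgeR adjusted p = 0.058), and passed it at -0.50 without adult replicate 2 (edgeR adjusted p = 0.0081). Without adult replicate 1 it was -0.12 (edgeR adjusted p = 0.48). Kcnq1, best known from the heart, had a log2 fold change of 0.31 (95% interval -0.55 to 1.16), and its ages overlapped.

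**Figure D2:**
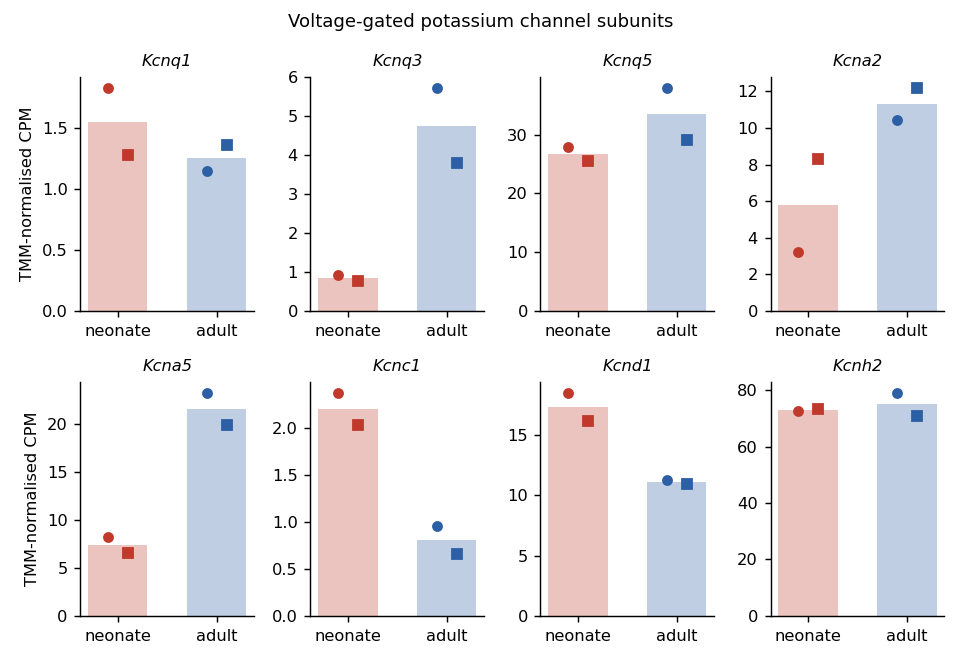
TMM-normalised CPM of 8 Kv pore subunit genes in each library; circles are replicate 1, squares replicate 2, bars the mean of an age, and each panel has its own axis from 0. Kcnq3 and Kcna5 separate the ages by several-fold, while the 4 libraries of Kcnh2 lie between 71.0 and 79.0 CPM.

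Among the Shaker-type Kcna genes, Kcna5 and Kcna2 were called. Kcna5, a delayed rectifier that is sensitive to oxygen in lung vessels, had 8.19 and 6.60 CPM in neonates and 23.2 and 19.9 CPM in adults. It was 2.91-fold higher in adults (-1.54, SE 0.16, edgeR adjusted p = 6.2e-05), and the lowest adult library had more than 2 times the level of the highest neonatal one. Smooth muscle markers moved the same way, 5 of 7 lower in neonates at sums given above, and their part in the difference of Kcna5 was not tested. Kcna2, an axonal subunit clustered beside the nodes of myelinated fibres, had 3.24 and 8.30 CPM in neonates and 10.5 and 12.2 CPM in adults. Here the neonatal replicates were far apart, and neonate replicate 1, the lower one, was also the library with the lower sum of glial markers, whose part was not tested. The log2 fold change of -0.97 (SE 0.36, edgeR adjusted p = 0.042) was -0.45 without neonate replicate 1 (edgeR adjusted p = 0.070) and -1.80 without neonate replicate 2. It also missed the threshold without adult replicate 1 (-1.08, edgeR adjusted p = 0.053) and without adult replicate 2 (-0.86, edgeR adjusted p = 0.12). Kcna3, the channel of T lymphocytes and macrophages (-0.86), Kcna4, an inactivating A-type subunit (-1.08), and Kcna6 (0.33) did not pass, with at most 2.39 CPM in any library. Without neonate replicate 2, Kcna4 passed at -1.65 (edgeR adjusted p = 0.029).

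Among the other Kv pore subunits, Kcnc1 and Kcnd1 were higher in neonates. Kcns3, a silent subunit that modifies other Kv channels, was at -0.20 (95% interval -0.85 to 0.45). Kcnc1, of a family of fast channels for brief action potentials, had 2.37 and 2.03 CPM in neonates and 0.957 and 0.655 CPM in adults, 2.72-fold higher in neonates (1.44, SE 0.38, edgeR adjusted p = 0.0094). The call of Kcnc1 was lost without adult replicate 2, at 1.20 (edgeR adjusted p = 0.10). Kcnc4 was uneven between the adult libraries, at 2.82 and 0.554 CPM, and was not called (neonates 1.15 and 0.974 CPM, log2 fold change -0.67), but passed at -1.40 without adult replicate 2 (edgeR adjusted p = 0.045) and turned to 0.94 without adult replicate 1 (edgeR adjusted p = 0.27). Of the A-type Kcnd subunits, Kcnd1 was higher in neonates, with 18.4 and 16.1 against 11.3 and 10.9 CPM (0.64, SE 0.14, edgeR adjusted p = 0.0038). Kcnd3, at 9.97 and 11.4 CPM in neonates and 9.65 and 12.0 CPM in adults, gave a log2 fold change of -0.019 with a 95% interval of -0.43 to 0.39. Kcnd2 had no entry under that symbol, so its level is not known here.

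The Kcnh genes encode the ether-a-go-go channels, of which Kcnh2 is the rat counterpart of hERG, a channel that helps to end the action potential of the heart. Kcnh2 (ENSRNOG00000009872) had 72.5 and 73.4 CPM in neonates and 79.0 and 71.0 CPM in adults. All 4 libraries lay close together, and the log2 fold change of -0.039 had a 95% interval of -0.24 to 0.16, which leaves out any change of 2-fold (edgeR adjusted p = 0.71). Scaled to library size alone it was -0.28 (edgeR adjusted p = 0.023), under a scaling that moved the median of all genes from -0.0029 to -0.25. Kcnh6, a further hERG-like gene, had 2.17 and 1.03 CPM in neonates and 1.08 and 1.18 CPM in adults, with a log2 fold change of 0.50 (95% interval -0.49 to 1.49). Kcnh1 (0.54), Kcnh4 (0.28) and Kcnh8 (-0.17) were not called, and Kcnh1 passed at 0.85 without neonate replicate 2 (edgeR adjusted p = 0.038). Kcnh3, with 0.310 and 0.612 CPM in neonates and 1.15 and 1.13 CPM in adults, was lower in neonates (-1.30, SE 0.47, edgeR adjusted p = 0.037). At these few reads the call was lost without neonate replicate 1 (-0.90, edgeR adjusted p = 0.13), adult replicate 1 (-1.29) or adult replicate 2 (-1.32), and in DESeq2 (adjusted p = 0.11).

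**Figure D3:**
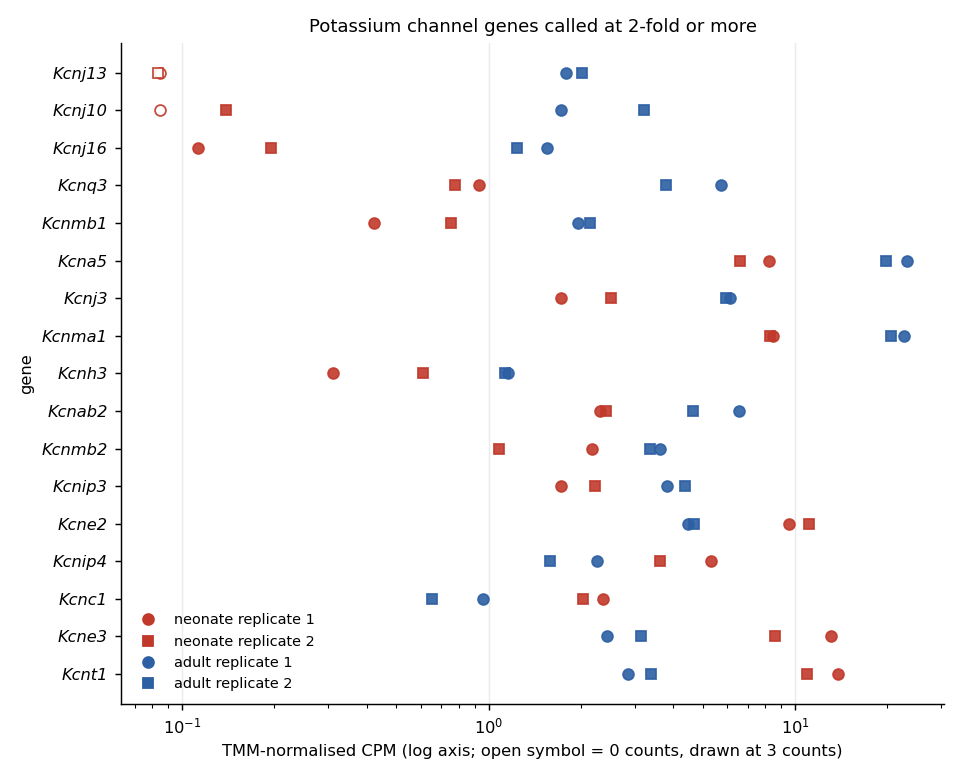
TMM-normalised CPM on a log axis for 17 of the channel genes called past 2-fold, from the lowest to the highest fold change of neonate over adult; circles are replicate 1, squares replicate 2, red neonates and blue adults, and open symbols mark 0 counts, drawn at the level of 3 counts. In each row both neonatal libraries lie on one side of both adult libraries, as for 83.0% of all genes tested. The rows were chosen by calls from these same libraries, so this separation is no further result.

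Of the 5 genes higher in neonates past 2-fold, 3 encode auxiliary subunits of Kv channels. Kcne3 (ENSRNOG00000017054), a small membrane subunit that keeps Kcnq1 open and also binds Kcnc channels, had 13.1 and 8.60 CPM in neonates and 2.43 and 3.15 CPM in adults. It was 3.89-fold higher in neonates (1.96, SE 0.28, edgeR adjusted p = 0.00031), and the lowest neonatal library was well above the highest adult one. Neonate replicate 1, the library with more parathyroid RNA, had the higher level, and without it the log2 fold change was 1.63 (edgeR adjusted p = 0.00031). Kcne2, a relative that modifies Kcnq1 and Kcnh2, had 9.55 and 11.1 CPM in neonates and 4.47 and 4.69 CPM in adults (1.18, SE 0.21, edgeR adjusted p = 0.0011). Here neonate replicate 2 was the higher one. The Kcnip genes encode calcium-binding partners of the Kcnd channels, and Kcnip3 also acts as a transcriptional repressor. Kcnip4 had 5.32 and 3.62 CPM in neonates and 2.26 and 1.59 CPM in adults (1.22, SE 0.33, edgeR adjusted p = 0.011), and Kcnip3 went the other way, with 1.72 and 2.23 CPM in neonates and 3.83 and 4.36 CPM in adults (-1.05, SE 0.30, edgeR adjusted p = 0.013). Without neonate replicate 1 both were called but under 2-fold, at 0.91 and -0.88. Without adult replicate 2 both were lost, at 0.98 and -0.96 (edgeR adjusted p = 0.088 and 0.10). Kcnip2, the main partner in heart, ranged from 3.24 to 8.21 CPM over the 4 libraries with overlap between ages, and its estimated counts of 165.88, 131.6 and 249.18 in 3 of the libraries were not whole, so that its level is uncertain. Of the beta subunits, which bind inside the cell, Kcnab2 was higher in adults, with 2.31 and 2.42 against 6.55 and 4.66 CPM (-1.24, SE 0.28, edgeR adjusted p = 0.0044). Its call was lost without adult replicate 1 (-0.98, edgeR adjusted p = 0.069). Kcnab1 (-0.15, 95% interval -0.46 to 0.17) and Kcnab3 (0.81, 95% interval -0.061 to 1.67) were not called.

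The subunits of the BK channel, which hypoxia inhibits in rat glomus cells, differed between ages in opposite directions. The pore gene Kcnma1 (ENSRNOG00000005985) had 8.45 and 8.30 CPM in neonates and 22.7 and 20.5 CPM in adults. It was 2.58-fold higher in adults (-1.37, SE 0.14, edgeR adjusted p = 4.6e-05), with replicates close together at both ages. The beta subunits set how the pore responds to calcium. Kcnmb4, the beta subunit typical of neurons, went the other way, with 18.8 and 18.4 CPM in neonates and 11.7 and 11.1 CPM in adults (0.70, SE 0.13, edgeR adjusted p = 0.0014). The ratio of Kcnmb4 to Kcnma1 reads was therefore 2.22 and 2.22 in the neonatal and 0.516 and 0.543 in the adult libraries, 4.19-fold higher in neonates. Of the markers of sympathetic neurons and nerve, 10 of 11 moved the same way as Kcnmb4, a part that was not tested. Transcript lengths were not used, so that the ratio tells of the shift between ages and not of the number of subunits per pore. Kcnmb1, the beta subunit of smooth muscle, had 0.422 and 0.752 CPM in neonates and 1.96 and 2.14 CPM in adults, 3.48-fold higher in adults (-1.80, SE 0.42, edgeR adjusted p = 0.0049). Of the smooth muscle markers, 5 of 7 moved the same way, with summed levels of 627 and 659 CPM in neonates and 773 and 904 CPM in adults, and their part was not tested. Kcnmb2, an inactivating beta subunit of chromaffin cells and neurons, had 2.17 and 1.09 CPM in neonates and 3.63 and 3.35 CPM in adults (-1.10, SE 0.38, edgeR adjusted p = 0.030). This call was lost without neonate replicate 2 (-0.68), adult replicate 1 (-1.04) or adult replicate 2 (-1.16), at edgeR adjusted p from 0.084 to 0.12. Kcnmb3 had 0 counts in all 4 libraries.

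**Figure D4:**
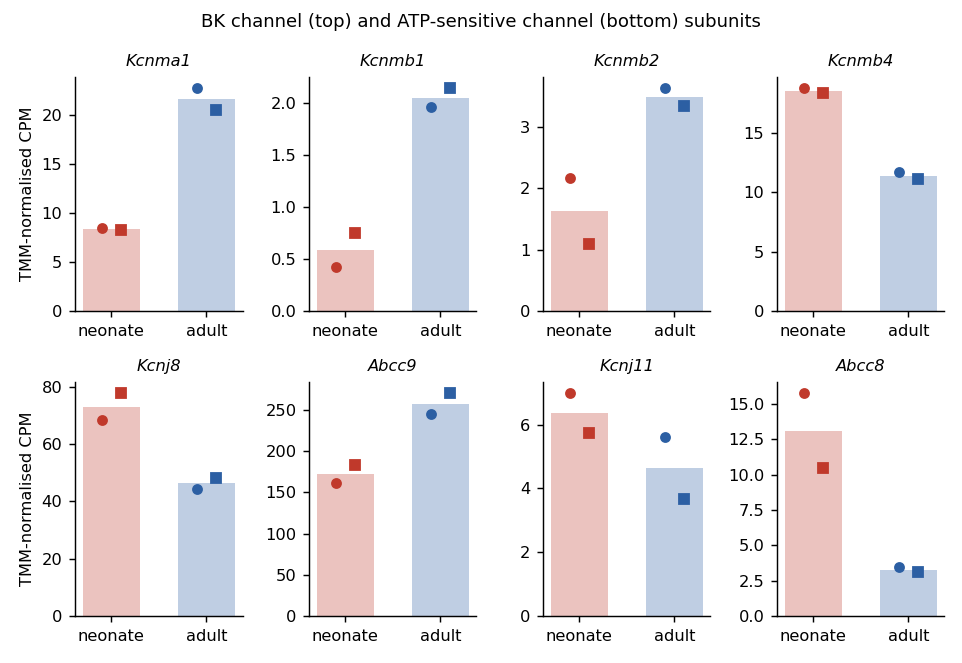
TMM-normalised CPM in each library of the BK channel genes (top row) and of the pore and sulfonylurea receptor genes of ATP-sensitive channels (bottom row); circles are replicate 1, squares replicate 2, bars the mean of an age, and each panel has its own axis from 0. Kcnma1 and Kcnmb4 differ between ages in opposite directions, as do Abcc9 and Abcc8.

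The sodium-activated channel Kcnt1 (Slack, ENSRNOG00000017283) and the auxiliary subunit Kcne3 had the largest differences toward neonates among the 49 tested, close to each other and in an order that turned with the library left out. Kcnt1 had 13.8 and 10.9 CPM in neonates and 2.85 and 3.38 CPM in adults, 3.97-fold higher in neonates (1.99, SE 0.23, edgeR adjusted p = 9.3e-05). Without neonate replicate 1 it was 1.81 and without neonate replicate 2 it was 2.16, and markers of sympathetic neurons and nerve were higher in neonates as well, a part that was not tested. Kcnt2 (Slick), with 2.90 and 4.93 CPM in neonates and 4.22 and 6.00 CPM in adults, overlapped between ages and was not called (-0.38, 95% interval -1.11 to 0.34), though without neonate replicate 2 it passed at -0.81 (edgeR adjusted p = 0.041). The small-conductance calcium-activated channels Kcnn1 (0.068, 95% interval -0.54 to 0.68), Kcnn2 (0.56, 95% interval -0.31 to 1.43) and Kcnn3 (-0.11, 95% interval -0.69 to 0.46), which follow the action potential with a slow hyperpolarisation, were not called. Kcnn2 passed without neonate replicate 1 (0.91, edgeR adjusted p = 0.043). Kcnn4, the intermediate-conductance channel of blood cells, epithelium and dividing cells, had 10.4 and 7.07 CPM in neonates and 4.66 and 5.42 CPM in adults (0.79, SE 0.25, edgeR adjusted p = 0.021). It was highest in neonate replicate 1, and the call was lost without that library (0.49), without adult replicate 1 (0.69) and without adult replicate 2 (0.91), at edgeR adjusted p from 0.051 to 0.11. Scaled to library size alone it was not called either (0.54, edgeR adjusted p = 0.081).

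Among inward rectifiers, 3 genes were near the floor in neonates and passed the filter through the adult libraries alone. A level of 1 CPM or more in the adult libraries was thus their condition of entry. Kcnj13 (ENSRNOG00000016057), a channel of epithelia that pump ions, had 0 counts in both neonatal libraries and 1.79 and 2.02 CPM in the adult libraries, and was at least 22.7-fold higher in adults against a floor of 3 counts per library (edgeR adjusted p = 8.8e-05). Kcnj10 (ENSRNOG00000007705), the main potassium channel of glia, had 0 and 0.139 CPM in neonates, from 0 and 5 counts, and 1.72 and 3.23 CPM in adults (-5.08, SE 0.78, edgeR adjusted p = 0.00052). Without neonate replicate 1 it was -4.12, and without neonate replicate 2 only a bound of at least 29.3-fold remained. Kcnj16, which forms a pH-sensitive channel together with Kcnj10, had 0.113 and 0.195 CPM in neonates and 1.55 and 1.23 CPM in adults, 8.87-fold higher in adults (-3.15, SE 0.52, edgeR adjusted p = 0.00076). Glial markers did not move together, with Gfap (-1.96) and Cdh19 (-0.93) lower and Sox10 (0.31) and Fabp7 (2.84) higher in neonates, and their part was not tested. Kcnj3, a G protein-gated channel through which transmitters slow the heart and quieten neurons, had 1.72 and 2.51 CPM in neonates and 6.14 and 5.95 CPM in adults, 2.86-fold higher in adults (-1.51, SE 0.28, edgeR adjusted p = 0.0016). Its partner subunits did not reach the filter, Kcnj5 with at most 16 counts, Kcnj9 with at most 13 counts and Kcnj6 with 0 counts in all 4 libraries. The strong rectifier Kcnj12 (-0.41, 95% interval -1.16 to 0.35) and Kcnj14 (0.39, 95% interval -0.00047 to 0.79) were not called.

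ATP-sensitive channels pair a pore, Kcnj8 or Kcnj11, with a sulfonylurea receptor, Abcc9 or Abcc8, and open when ATP falls. Kcnj8, with Abcc9 the form of vessels, had 68.3 and 77.8 CPM in neonates and 44.2 and 48.3 CPM in adults, 1.58-fold higher in neonates (0.66, SE 0.10, edgeR adjusted p = 0.00049). Abcc9 was lower in neonates, with 162 and 183 against 245 and 271 CPM (-0.58, SE 0.092, edgeR adjusted p = 0.00061). The ratio of Abcc9 to Kcnj8 reads was 2.37 and 2.35 in neonates and 5.55 and 5.60 in adults, 2.36-fold higher in adults. Of the pericyte markers, 4 of 5 were lower in neonates, the direction of Abcc9 and opposite to Kcnj8, and Pdgfrb was higher (0.31). The part of pericytes was not tested. Kcnj11, the pore of beta cells and neurons, had 6.98 and 5.73 CPM in neonates and 5.62 and 3.68 CPM in adults and was not called (0.45, 95% interval -0.17 to 1.07). Its receptor Abcc8 had 15.8 and 10.5 CPM in neonates and 3.44 and 3.10 CPM in adults, 4.01-fold higher in neonates (SE 0.25 on the log2 scale, edgeR adjusted p = 0.00015), and its log2 fold change was 1.68 without neonate replicate 1. The ratio of Abcc8 to Abcc9 was 0.0975 and 0.0571 in neonates and 0.0140 and 0.0115 in adults, 5.89-fold higher in neonates.

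Of 20 other genes whose products assemble with, anchor or position potassium channels, 16 were tested, and 9 were lower and 3 higher in neonates in edgeR's test, against 31.1% and 31.2% of all genes. Dlg2, a scaffold that clusters Kcna and Kcnj channels, differed toward adults, with 6.00 and 4.18 CPM in neonates and 22.1 and 18.9 CPM in adults (-2.01, SE 0.20, edgeR adjusted p = 4.5e-05). Amigo1, an adhesion protein that binds Kv channels, had 28.6 and 28.5 CPM in neonates and 87.1 and 78.0 CPM in adults (-1.53, SE 0.097, edgeR adjusted p = 5.6e-06). Adam22, which anchors the Kcna complex of axons, was at -1.44 (SE 0.27), and its ligand Lgi1 was at 0.35 (SE 0.12), the latter lost without neonate replicate 2 (0.25) or adult replicate 1 (0.21). Lrrc55, a leucine-rich repeat partner of Kcnma1, was at -1.26 (SE 0.38), and lost without adult replicate 1 (-1.13). Dpp6, which speeds Kcnd channels, was at -0.40 (SE 0.12), and lost without adult replicate 1 (-0.18). Of the endoplasmic reticulum proteins that tether the plasma membrane, Vapa was higher (0.45, SE 0.083) and Vapb lower (-0.71, SE 0.13) in neonates. Scaled to library size alone, neither Vapa (0.21) nor Lgi1 (0.10) was called. Lower as well were the scaffolds Dlg1 (-0.28) and Dlg4 (-0.30), of which Dlg1 was lost without neonate replicate 1 (-0.24), adult replicate 1 (-0.30) or adult replicate 2 (-0.26), and Dlg4 without adult replicate 2 (-0.25). Dpp10 (-0.86), Lgi2 (0.35), Lgi3 (-0.24) and Dlg3 (0.25) were not called, and Dlg3 passed without neonate replicate 2 (0.44).

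The 29 channel genes under the filter include 8 with 0 counts in all 4 libraries, which allows up to 3 counts, namely Kcna10, Kcnf1, Kcnh5, Kcns2, Kcne1, Kcnmb3, Kcnu1 and Kcnj6. Another 5, Kcng1, Kcng3, Kcns1, Kcnj1 and Kcnj4, had at most 3 counts in any library. Of those with more, 4 were low in neonates and counted in both adult libraries. Kcna1, the axonal partner of Kcna2, had 0 counts in both neonatal libraries and 21 and 44 counts in the adult ones, at least 9.67-fold higher. Kcnj2, the classical strong inward rectifier, had 2 and 0 counts in neonates and 19 and 48 in adults, Kcne4 had 2 and 5 counts against 35 and 57, and Kcnj15 had 4 and 0 counts against 27 and 33. In edgeR's fit without a filter on low counts, these 4 genes were lower in neonates, with adjusted p from 0.0028 to 0.023. None of the other 17 genes under the filter that had counts was called. The 4 genes were singled out above by the same counts that gave these p-values. Their number is not set against the share of all 19411 genes in that fit, so it is not read as particular to channels. The remaining genes, Kcnrg, Kcne5, Kcnip1, Kcna7, Kcnc2, Kcng2, Kcng4, Kcnh7, Kcnv1, Kcnv2, Kcnj5 and Kcnj9, had between 0 and 41 counts in a library.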

How the data were processed

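Poly(A) RNA of whole CBs was sequenced in 2 neonatal and 2 adult libraries, grouped by the sample labels. The authors trimmed the reads, aligned them with STAR and quantified them with Salmon 1.5.2 on rat build Rnor 6.0, and deposited estimated counts per gene, neither normalised nor filtered. Estimated counts assign reads shared between genes by probability, and the strand setting is not given in the sources used here. The labels do not say that the pools of one age came from separate litters, and p-values measure only the spread between these pools. Counts of replicates differed by more than sampling noise (chi-square per degree of freedom 36.8 in neonates and 17.1 in adults), so no library was counted 2 times.

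Counts were rounded, 636 genes with another RefSeq biotype than protein coding were dropped after matching symbols, and a gene entered the test with 1 CPM or more in 2 libraries. Genes were fitted with edgeR 4.0.16 in R 4.3.3 (TMM, quasi-likelihood test, age as the only term, p adjusted after Benjamini and Hochberg across every gene in the fit). A call required an adjusted p under 0.05, with a fold change of 2 as a further limit where stated. The code was tested on simulated counts. Alternatives used other size factors, DESeq2 1.42.0, limma 3.58.1, other filters, a replicate block and each library left out. Genes are members by symbol. Some members and markers, although counted, are not reported here by name. Of the others, every member is named, and members called past 2-fold are given with the CPM of each library. Some tested members known from glomus cells and not called past 2-fold are given without the CPM of each library. The members and the lists of partners and markers were chosen with earlier results of these data known. Promoter sequences are from RefSeq GRCr8, a build other than that of the counts, and were matched by symbol.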

Additional observations from a re-analysis of the deposited data

How the results depend on the processing

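Of the 25 calls, all 25 were kept with RLE size factors, with TMM computed without mitochondrially encoded and ribosomal protein genes, with limma-voom, and with genes of every biotype kept, and no called gene changed sign under any alternative. DESeq2 lost 2 calls, that of Kcnh3 among them, and the fit without a filter lost Kcnh3. Scaled to library size alone, 24 calls were kept, 4 genes were gained (Kcna4, Kcnab1, Kcnh2 and Kcnq5), so that 8 genes were higher and 20 lower, 3 were higher past 2-fold, and 1 channel partner was higher. With a mean of at least 5 CPM required, 20 channel genes were left, of which 6 were lower, 4 lower past 2-fold and 3 higher past 2-fold, because fewer genes were tested. Class medians, less that of all genes, were then 0.71 for calcium- and sodium-activated channels, -0.36 for Kv pore subunits and 0.41 for inward rectifiers. The last was a reversal of sign with the low genes gone and only Kcnj8, Kcnj11 and Kcnj14 left in the class. Without a filter, the medians on the same scale were -1.44 for inward rectifiers and 0.20 for Kv auxiliary subunits.

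With 1 library left out, between 16 (without adult replicate 2) and 23 (without neonate replicate 2) of the 25 calls were kept, the lone library of an age being assumed to vary like the other age. Class medians, less that of all genes, ranged from -1.07 to -0.86 for inward rectifiers and from 0.28 to 0.99 for Kv auxiliary subunits. For Kv pore subunits they ranged from -0.42 to -0.12. For calcium- and sodium-activated channels they ranged from -0.080 to 0.096, on both sides of the median of all genes. Deviations of neonate replicate 1 and adult replicate 1 from the mean of their age correlated at -0.015 across genes. With 2 libraries per age, this value cannot tell whether libraries of the same number shared a litter or batch. The study's methods state that part of the litter was kept until 21 days, but do not say which pools shared a litter. The main fit took the libraries as unpaired. A fit with a replicate block gave 9 higher and 17 lower genes, adding Kcnq5 (edgeR adjusted p = 0.0096) and losing none. Depth limits the genes near 1 CPM, where a library holds few reads.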
